A study of Mus musculus with 11 samples.

Results

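The matrix metalloproteinases Mmp2, Mmp3, Mmp8, Mmp9, Mmp12 and Mmp14 and the tissue inhibitors of metalloproteinases Timp1, Timp2, Timp3 and Timp4 were examined in the tibialis anterior (TA), a limb muscle of the lower leg. Members were taken by gene symbol, which gave 10 of the 21759 gene symbols of the mRNA array table and 10 of its 28350 probe sets, 1 for each gene. A probe set is a group of array probes read together as a single signal. All mice were male and 14 weeks old. Their labels give the strain as C57/B10, and the paper names C57/Bl10 for the wild type and C57/Bl10ScSn-*Dmd^mdx*/J for *mdx*. The C57 group was 3 wild-type mice that were given no treatment. The *mdx* group was 4 untreated mice with a nonsense mutation in Dmd, the gene for dystrophin, the protein that links the fibre cytoskeleton to the surrounding matrix. The treated group was 4 *mdx* mice given 1 tail-vein injection of Pip6e-PMO at 12.5 mg/kg when 12 weeks old, 2 weeks before their muscles were taken. Pip6e-PMO is a peptide joined to a morpholino oligonucleotide that makes the splicing machinery skip the mutated exon, so that a shortened dystrophin can be made. The *mdx* mice were not given a control injection, so the injection itself and the oligonucleotide cannot be told apart.

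Matrix metalloproteinases are zinc-dependent endopeptidases that cleave collagens, fibronectin, laminins and other proteins outside the cell, and they also release growth factors and cytokines held in the matrix. Most are secreted as inactive precursors, while some, such as Mmp14, are anchored in the cell membrane, and TIMPs block them by binding the active site. In muscle lacking dystrophin, fibres repeatedly break down and regenerate, macrophages and fibroblasts gather, and the matrix is rebuilt. mRNA levels carry no information on how much of a protease is active.

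The labelled tissue was checked with 8 muscle fibre genes, among them Acta1 and Ckm, whose intensities summed to between 58612 and 61629 in every mouse and of which 0 were called in any comparison in limma (0, 0 and 1 at an unadjusted p under 0.05 in the 3 comparisons). Signals were RMA intensities, a background-corrected and quantile-normalized scale, and are given as log2. Quantile normalization gives probe sets of like rank near-equal values on every array. Acta1, Ckm, Pvalb and Atp2a1, with group means of 13.1 to 13.3, lay high on that scale. The even fibre sums and the lack of calls are therefore partly set by it. They show only that fibre genes had high signals in every mouse. A probe set was tested if its mean intensity reached 30 in at least 1 group, as 14494 did, and limma's p-values were adjusted over all of these (Benjamini-Hochberg), with a gene called where the result was under 0.05. The median intensity per array ran from 27.5 to 28.6. Dmd mRNA differed by -0.55 between *mdx* and C57 mice (adjusted p = 0.198) and was not called. Treated mouse 2 (T2) stood apart from the other treated mice: it received the lowest array weight of the 11, 0.256, on a scale where a typical array lies near 1 and one that departs from its group's means lies lower, and had the highest treated signal for Mmp2, Mmp3, Mmp8, Mmp14, Timp1 and Timp2 and the lowest for Timp3. The paper reports that its treated sample T2 had the lowest efficacy by exon skipping RT-qPCR and by dystrophin mass spectrometry, with which its western blot values were not significantly correlated. In its mRNA clustering T2 lay closer to *mdx* samples than the other treated samples did. T2 here is matched to that sample by its number. In treated against *mdx* muscle, calls, counts and restoration that rest on T2 are therefore given with and without it. A lower signal in whole muscle can come from fewer cells of a type or from less RNA per cell, and these cannot be told apart here.

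The 250 bases before the annotated start in RefSeq (GRCm38.p6) are shown for 4 members, chosen because they include the largest rises and the largest fall in *mdx* muscle and every AP-1 site found. AP-1 is a dimer of Fos and Jun proteins and a textbook activator of metalloproteinase genes. Capitals mark the AP-1 site TGANTCA, searched on both strands, and the TATA box TATAAA, searched on the strand of the gene; both are written 5′ to 3′ on that strand. The windows lie at chr9:7445572-7445821 (plus strand) for Mmp3, chr9:7347124-7347373 (plus strand) for the second of 2 annotated starts of Mmp12, chrX:20869916-20870165 (plus strand) for Timp1 and chr6:115252206-115252455 (minus strand) for Timp4.
Mmp3: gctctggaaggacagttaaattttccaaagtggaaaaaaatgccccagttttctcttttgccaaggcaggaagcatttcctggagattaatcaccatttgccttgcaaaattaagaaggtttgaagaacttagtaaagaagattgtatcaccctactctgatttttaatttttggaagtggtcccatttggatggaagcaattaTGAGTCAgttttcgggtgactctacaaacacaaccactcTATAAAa
Mmp12: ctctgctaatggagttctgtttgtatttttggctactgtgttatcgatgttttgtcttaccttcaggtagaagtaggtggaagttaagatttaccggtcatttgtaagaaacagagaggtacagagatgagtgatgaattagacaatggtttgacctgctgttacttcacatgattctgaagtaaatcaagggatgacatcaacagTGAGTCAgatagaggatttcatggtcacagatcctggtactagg
Timp1: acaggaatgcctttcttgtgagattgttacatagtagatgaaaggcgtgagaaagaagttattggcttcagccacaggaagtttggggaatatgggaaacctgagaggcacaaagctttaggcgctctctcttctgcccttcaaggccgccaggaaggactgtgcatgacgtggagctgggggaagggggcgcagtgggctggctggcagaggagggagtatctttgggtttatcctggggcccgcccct
Timp4: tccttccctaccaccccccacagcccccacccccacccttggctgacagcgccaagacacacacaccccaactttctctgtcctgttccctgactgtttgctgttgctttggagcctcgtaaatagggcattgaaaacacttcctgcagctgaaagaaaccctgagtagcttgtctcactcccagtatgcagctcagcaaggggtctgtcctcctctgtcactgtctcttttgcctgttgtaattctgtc

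Windows were found for 8 of the 10 members, with 9 windows in all, and Mmp2 and Mmp9 had no entry. The AP-1 site stood in the Mmp3 window, where it began 46 bases before the start, and in the second Mmp12 window, 44 bases before the start, and in none of the other 7. Over all 32851 windows of this length, 6.75% hold that site. The Mmp3 window also ended in a TATA box 7 bases before the start, a motif found in 7.59% of all windows. The Timp1 window held neither. The Ets core AGGAAG, read on both strands, was in 7 of the 9 windows, those of Mmp3, Mmp8, Mmp14, Timp1, Timp3 and Timp4 and the first of Mmp12, and in 29.5% of all windows. In Timp1 it began 175 and 99 bases before the start. The AP-1 variant TGAGTAA, present in 2.25% of all windows, was in neither the Mmp3 nor the Timp1 window. These are matches of letters and no measure of binding.

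In *mdx* against C57 muscle, Timp1 rose most, by 3.51 on the log2 scale or 11.4-fold, and the proteases Mmp3, Mmp14 and Mmp2 rose 5.59-fold, 2.89-fold and 1.74-fold. Timp3 and Timp4 fell. Of the 9 members tested, 4 were called higher and 2 lower, where 7.06% of all probe sets tested were called higher and 4.96% lower. Of the 5 proteases tested 3 were higher and none lower, while of the 4 inhibitors 1 was higher and 2 were lower. Over all 10 members the *mdx* mice lay above every C57 mouse for 6 and below every one for 2, against 13.1% and 11.3% of all probe sets tested. Mmp8, a collagenase of neutrophils, did not reach the minimum signal in any group, with log2 signals from 2.24 to 2.61 in the 11 mice, and was not tested.

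Mmp3, or stromelysin-1, cleaves fibronectin, laminin and proteoglycans and activates other metalloproteinases. Its log2 signal was 4.04, 3.38 and 4.23 in the C57 mice, 6.2, 6.31, 6.06 and 6.89 in the *mdx* mice and 5.05, 5.79, 5.55 and 5.48 in the treated mice T1 to T4. The 3 groups did not overlap, with every treated mouse between C57 and *mdx*. The *mdx* mean exceeded the C57 mean by 2.48 (standard error 0.24, adjusted p = 5.6e-05 in limma). Mmp3 passed the signal filter through the *mdx* and treated groups, since its C57 mean of 15.2 on the linear scale lay under 30, so background limits the size of this difference.

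Mmp14, the membrane-type metalloproteinase that activates the Mmp2 precursor, measured 7.87, 7.48 and 7.67 in C57, 9.09, 9.26, 9.31 and 9.15 in *mdx* and 8.77, 9.68, 9.09 and 8.94 in treated mice. All 8 dystrophic muscles lay above the C57 muscles, with an SD of 0.10 among the *mdx* mice and of 0.40 among the treated mice, or 0.16 without T2. The rise of 1.53 in *mdx* had a standard error of 0.18 and an adjusted p of 3.0e-04. Mmp2, a gelatinase that digests type IV collagen, measured 10.59, 10.55 and 10.41 in C57, 11.15, 11.60, 11.15 and 11.36 in *mdx* and 10.73, 11.57, 11.15 and 11.04 in treated mice. Again no dystrophic muscle reached down to a C57 muscle, and T1 lay nearest to them. Mmp2 rose by 0.80 in *mdx* (standard error 0.17, adjusted p = 0.0107).

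A pair of proteases associated with white blood cells did not pass. Mmp12, the macrophage elastase, measured 3.57, 3.62 and 3.41 in C57, 4.33, 6.85, 4.24 and 4.25 in *mdx* and 4.12, 5.70, 4.24 and 6.01 in treated mice. Every dystrophic muscle was above the C57 muscles, but *mdx* mouse 2 and treated mice T2 and T4 stood far above the rest of their groups. The difference of 1.38 had a 95% confidence interval of 0.03 to 2.74 and an adjusted p of 0.189, and it was 0.74 without *mdx* mouse 2. The C57 mean of Mmp12, 11.6 on the linear scale, also lay under the minimum signal. Mmp9, a gelatinase of neutrophils and macrophages, measured 5.71, 5.80 and 6.52 in C57, 5.60, 6.45, 6.45 and 5.47 in *mdx* and 5.29, 5.77, 5.23 and 5.84 in treated mice. The groups overlapped throughout, and the *mdx* minus C57 difference of -0.02 had a confidence interval from -0.63 to 0.60 (adjusted p = 0.983).

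**Figure D1:**
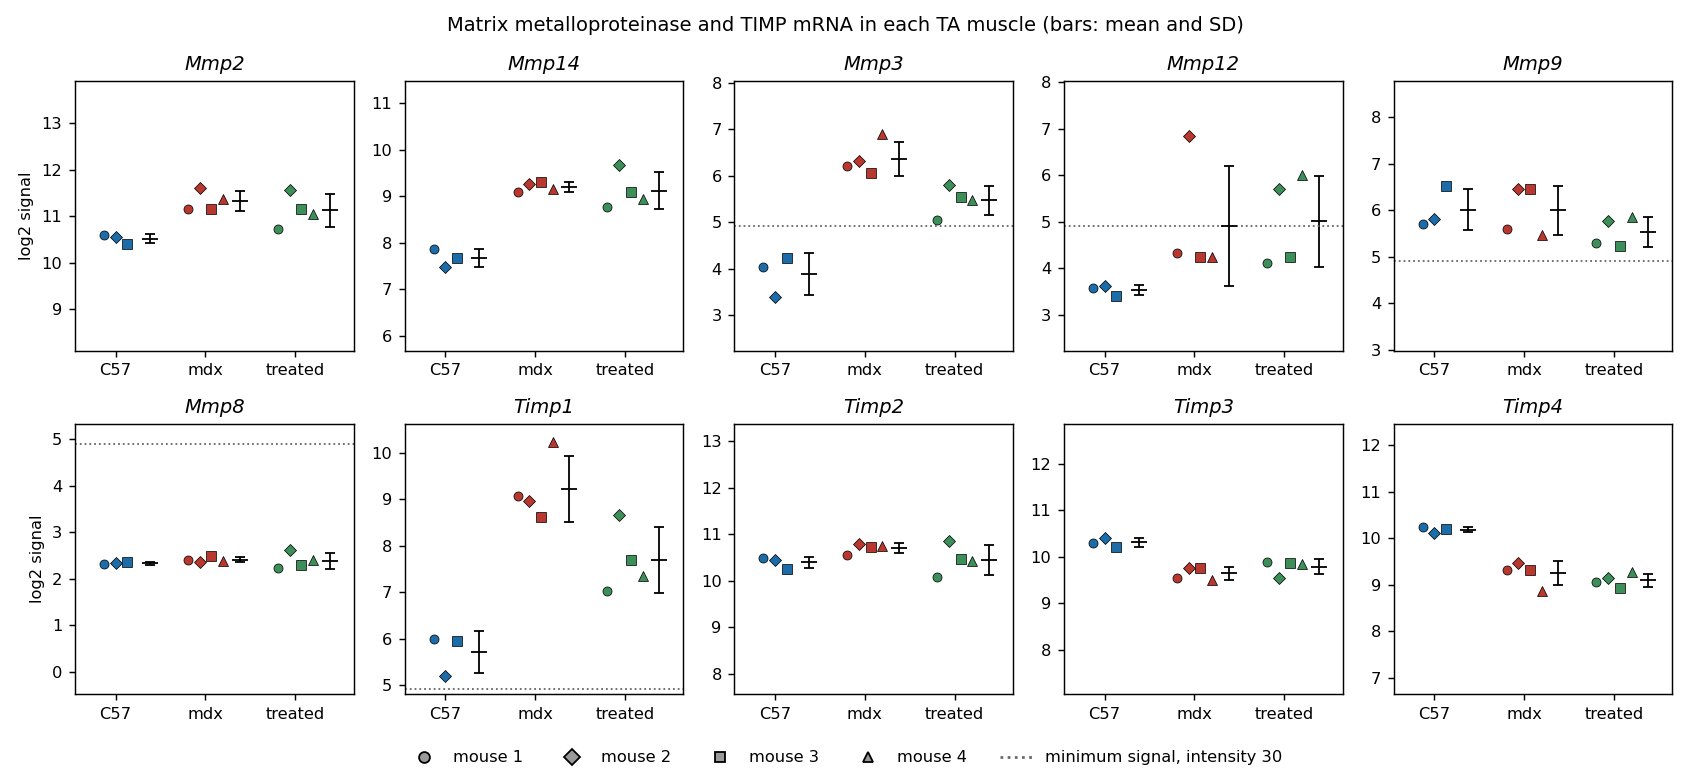
Log2 signal of each member in each mouse, by group (C57, n = 3; mdx, n = 4; treated, n = 4). Marker shapes number the mice within a group, bars give the mean and SD, every panel spans the same number of log2 units, and the dotted line is the minimum intensity of 30. Timp1 and Mmp3 sat highest in mdx mice and between the groups in treated mice, Mmp14 was about as high in treated as in mdx mice, and Timp4 was lower in all 8 dystrophic muscles.

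The 4 inhibitors moved in different directions. Timp1, a secreted inhibitor that cells make in response to cytokines and injury, measured 6.0, 5.19 and 5.94 in C57, 9.06, 8.96, 8.61 and 10.23 in *mdx* and 7.02, 8.66, 7.70 and 7.34 in treated mice. No C57 mouse came within 1 log2 unit of a dystrophic mouse, and *mdx* mouse 4 was highest. The rise of 3.51 had a standard error of 0.41 and an adjusted p of 2.7e-04. Timp2, which both inhibits Mmp2 and takes part in its activation by Mmp14, measured 10.50, 10.44 and 10.26 in C57, 10.55, 10.80, 10.74 and 10.76 in *mdx* and 10.08, 10.86, 10.47 and 10.42 in treated mice. The *mdx* mice were all above the C57 mice, by a mean of 0.31 with a confidence interval from -0.02 to 0.65 (adjusted p = 0.234), so no call was made.

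Timp3, the inhibitor that stays bound to the matrix and also blocks ADAM proteases, measured 10.30, 10.40 and 10.22 in C57, 9.54, 9.76, 9.76 and 9.50 in *mdx* and 9.89, 9.54, 9.87 and 9.84 in treated mice. Every dystrophic muscle was below every C57 muscle. Timp3 fell by 0.67 in *mdx* (standard error 0.11, adjusted p = 0.00277), to 0.630 of the C57 level. Timp4, an inhibitor with a narrow tissue range that includes heart and skeletal muscle, measured 10.24, 10.12 and 10.21 in C57, 9.32, 9.47, 9.33 and 8.87 in *mdx* and 9.06, 9.14, 8.93 and 9.27 in treated mice. Here too the C57 mice stood above all 8 others. Timp4 fell by 0.94 in *mdx* (standard error 0.14, adjusted p = 0.00101), to 0.520 of the C57 level. All 6 calls in this comparison held with each of the 11 mice left out in turn. On linear signals the methods' t-test no longer called Mmp2 (adjusted p = 0.0779), Mmp3 (adjusted p = 0.0709) or Timp1 (adjusted p = 0.189).

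In treated against *mdx* muscle, Timp1 and Mmp3 were lower and no member was higher. Of the 9 members tested, 0 were called higher and 2 lower in limma, where 7.26% of all probe sets tested were called higher and 3.88% lower. The same 2 were the members with an unadjusted p under 0.05, a level that 4565 of the 14494 probe sets tested reached. Without T2, 6 members had an unadjusted p under 0.05 and 3 were called. No share over all probe sets is given for the fit without T2, so these counts have no background beside them. Mmp3 was the only member of the 10 whose treated mice all lay below the *mdx* mice, and none lay above, against 6.69% and 9.29% of all probe sets tested. Mmp3 fell by 0.90 (standard error 0.22, adjusted p = 0.0294), to 0.537 of the *mdx* level. Timp1 differed by -1.54 (standard error 0.38, adjusted p = 0.0295), which is 0.345 of the *mdx* level, with T2 at 8.66 just above the lowest *mdx* mouse at 8.61. Without T2 both remained called, Mmp3 with a difference of -1.01 (adjusted p = 0.0112) and Timp1 with -1.86 (adjusted p = 0.00467).

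Both calls lay near the threshold and could be lost by leaving out 1 mouse. With a mouse left out, the difference ran from -1.01 to -0.72 for Mmp3 and from -1.86 to -1.20 for Timp1. The call for Mmp3 was lost without *mdx* mouse 2, *mdx* mouse 4, T1, T3 or T4, with an adjusted p of up to 0.0798. The call for Timp1 was lost without *mdx* mouse 4, T1, T3 or T4, with an adjusted p of up to 0.0847. Both were also lost in the methods' t-test, unpaired and with equal variances, with adjusted p-values of 0.120 for Mmp3 and 0.148 for Timp1 on log2 signals. That test called 88 of the 14494 probe sets in this comparison, where limma called 1615.

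For the other 7 members tested the treated and *mdx* mice overlapped. The membrane protease Mmp14 differed by -0.08, with a confidence interval from -0.45 to 0.29, and its partner Mmp2 by -0.19, from -0.54 to 0.16. Mmp9 differed by -0.46, from -1.03 to 0.11, and Mmp12 by 0.10, from -1.15 to 1.35, an interval that leaves a large change in either direction possible. Among the inhibitors, Timp2 differed by -0.26, from -0.56 to 0.05, Timp3 by 0.15, from -0.08 to 0.37, and Timp4 by -0.15, from -0.42 to 0.13. Without T2 the difference was -0.34 for Mmp2 (adjusted p = 0.0759), -0.27 for Mmp14 (adjusted p = 0.0975), 0.23 for Timp3 (adjusted p = 0.0913) and -0.13 for Mmp12 (adjusted p = 0.891). The adjusted p of Timp2 went from 0.240 to 0.0281 without T2, whose Timp2 signal was the highest of the 11 mice, and its difference to -0.39.

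**Figure D2:**
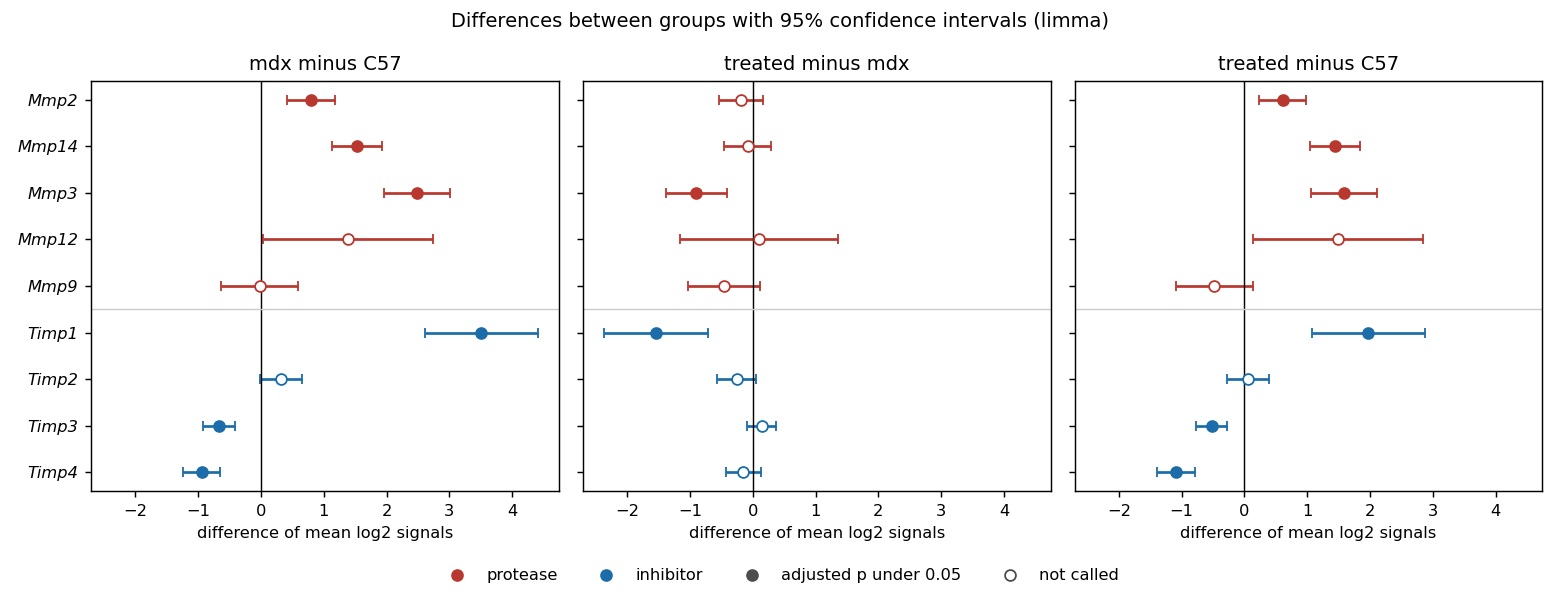
Differences between group means on the log2 scale (x axis) for the 9 members tested, with 95% confidence intervals from limma; proteases are red, inhibitors blue, and filled points have an adjusted p under 0.05. Of the 9 members 6 are filled for mdx minus C57, only Mmp3 and Timp1 for treated minus mdx, and the same 6 as in mdx for treated minus C57.

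Restoration, the difference between *mdx* and treated means as a share of that between *mdx* and C57 means, described how far each of the 6 changed members went back. It was 43.8% for Timp1, 36.2% for Mmp3, 24.1% for Mmp2, 21.8% for Timp3, 5.40% for Mmp14 and -15.6% for Timp4, which lay farther from C57 in treated than in *mdx* mice. Without T2 it was 53.1% for Timp1, 40.5% for Mmp3, 42.8% for Mmp2, 34.0% for Timp3, 17.6% for Mmp14 and -17.1% for Timp4, so that Mmp2 and Mmp3 changed places. For Timp1 the 4 treated mice gave 62.6, 15.8, 43.2 and 53.5%, and for Mmp3 they gave 53.0, 23.2, 32.8 and 35.7%. T2 thus gave the lowest value for both, yet a positive one. For Mmp2, T1 gave 73.3% and T2 gave -31.9%, so its treated mice lay on both sides of the *mdx* mean. Mmp14 had the same split, with 28.3% in T1 and -31.2% in T2, and Timp3 had 37.5% in T1 and -15.0% in T2. Of the 4 values for Timp4, only that of T4, at 2.39%, was above 0.

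In treated against C57 muscle, the 6 members changed in *mdx* were again called, 4 higher and 2 lower, where 15.6% of all probe sets tested were called higher and 8.96% lower. Groups did not overlap for 5 members that were higher, these 4 and Mmp12, and for 2 that were lower, against 17.9% and 14.1% of all probe sets tested. Timp1 stayed 1.97 above C57 (adjusted p = 0.00624), Mmp3 1.58 above (adjusted p = 0.00114), Mmp14 1.45 above (adjusted p = 3.6e-04) and Mmp2 0.61 above (adjusted p = 0.0268). Timp3 was 0.52 below, a difference of -0.52 (adjusted p = 0.00772), and Timp4 differed by -1.09 (adjusted p = 3.5e-04), the largest fall of any member. The Mmp2 call was lost without C57 mouse 2, C57 mouse 3 or T3, with an adjusted p of up to 0.0982. Mmp12 differed by 1.48 (adjusted p = 0.0969) and was called without *mdx* mouse 2 (adjusted p = 0.0233), which enters only through the shared estimate of the spread. The methods' t-test on log2 signals no longer called Mmp2 (adjusted p = 0.132), Timp1 (adjusted p = 0.0670) or Timp3 (adjusted p = 0.0503).

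Proteases and Timp1 were compared within each array, as log2 Timp1 minus log2 protease, since the signals of different probe sets cannot be set against each other as levels but their changes can. From C57 to *mdx* muscle this difference went up by 3.52 for Mmp9, 2.71 for Mmp2, 2.12 for Mmp12, 1.98 for Mmp14 and 1.02 for Mmp3, so Timp1 mRNA rose more than that of Mmp9, Mmp2 and Mmp14. For Mmp3 and Mmp12, whose C57 means lay under the minimum signal, background limits both the rise and this comparison. The *mdx* mice lay above every C57 mouse for Mmp2, Mmp3, Mmp9 and Mmp14, while Mmp12 overlapped through *mdx* mouse 2. From *mdx* to treated muscle the difference fell by 1.34 for Mmp2 and by 1.45 for Mmp14, with every treated mouse below every *mdx* mouse, and it changed by -1.64 for Mmp12, -1.08 for Mmp9 and -0.64 for Mmp3 with overlap. For Mmp3 the overlap came through T2 alone. T2 lay at 2.87, T1, T3 and T4 at 1.97, 2.15 and 1.86, and the lowest *mdx* mouse at 2.55. Relative to C57, Timp1 remained higher against Mmp2 by 1.36 and against Mmp9 by 2.45 with no overlap, while for Mmp3 (0.39), Mmp12 (0.49) and Mmp14 (0.52) the treated and C57 mice overlapped. No test was made of these differences, and they say nothing of the other inhibitors, of which Timp3 and Timp4 fell in *mdx* muscle.

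**Figure D3:**
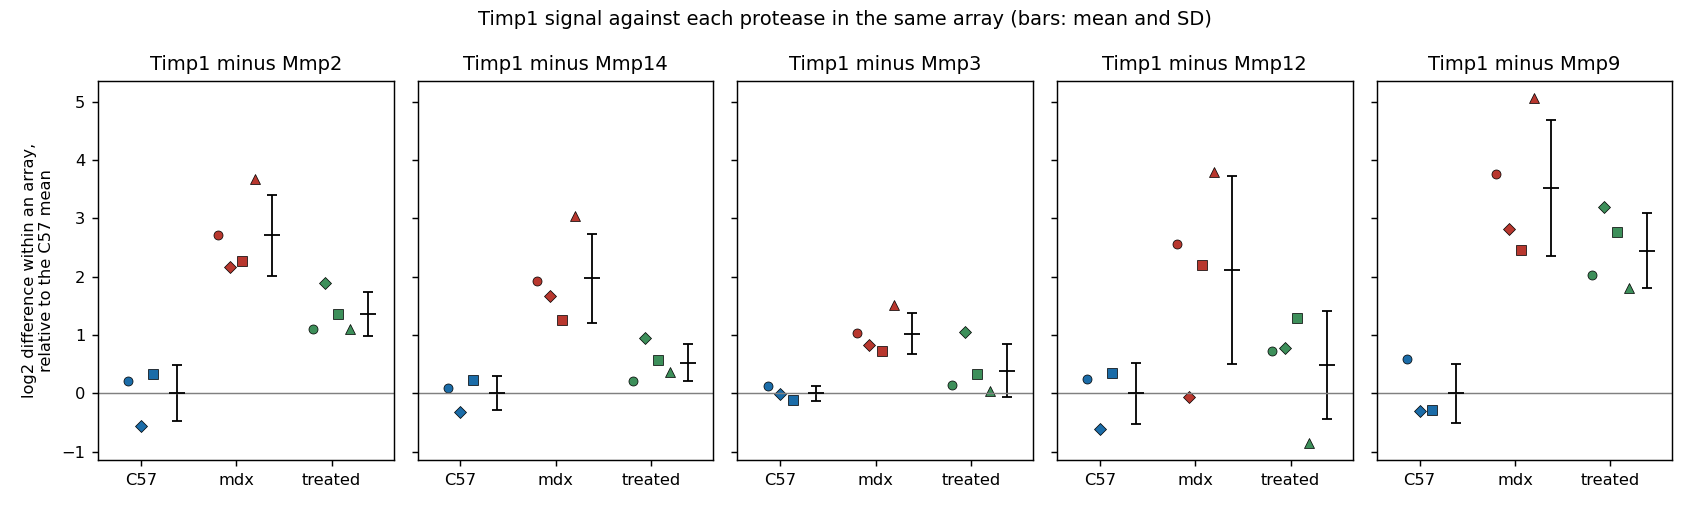
Log2 Timp1 minus log2 protease within each array, relative to the C57 mean (y axis), for 5 proteases by group, with mean and SD bars and marker shapes that number the mice. The mdx mice sat above the C57 mice for every protease except Mmp12, and the treated mice sat below the mdx mice without overlap for Mmp2 and Mmp14.

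The genes with the most similar profile differed between members. Likeness was the root mean square difference between log2 signals centred on their mean over the 11 mice, with 11841 genes compared. Nearest to Mmp2 were Col6a1, a chain of type VI collagen, at 0.0921, followed by Kdelr3, Thbs3, Ckap4 and Soat1, where the median gene lay at 0.439. Nearest to Mmp14 were Adam19, a membrane-bound protease, at 0.137, followed by Fbln7, Col5a2, Runx1 and Sh3pxd2b, against a median of 0.724. For Mmp3 they were Pcbd1 (0.277), the macrophage lysosomal protein Cd68 (0.323), Mdfi, Tnfrsf12a and Ttc9, against 1.05.

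For Timp1 the most similar profiles were those of the chemokine Ccl8 (0.486), Mmp3 (0.515), the protease inhibitor Serpina3n (0.516), Pcbd1 and Mt2, against a median of 1.51, so that the second nearest of all genes to Timp1 was another member. The inhibitors that fell had other neighbours. Nearest to Timp3 were Abcc4 (0.0923), Pla2g12a, Pnpla7, Dmrt2 and Map2k6, against 0.361, and nearest to Timp4 were Thpo (0.156), Fbxo44, Asb10, Gm106 and Prodh, against 0.528.

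Markers of other cells are given beside the members, and their part in these results was not tested. Over all probe sets tested, 7.06% were called higher and 4.96% lower in *mdx* against C57 muscle, and 7.26% and 3.88% in treated against *mdx* muscle. These shares are from the fit with T2. Counts without T2 have no share beside them and are not read as results about a list. Of 8 macrophage markers past the minimum signal, 7 rose in *mdx* muscle, and in treated against *mdx* muscle 2, Cd68 and Lgals3, were lower and 1, Mrc1, was higher. The summed intensity of all 9 on the list ranged from 1026 to 1495 over the C57 mice, from 2940 to 4773 over the *mdx* mice and from 2255 to 3038 over the treated mice, an order that the means of Timp1 and Mmp3 shared. The highest macrophage sum, 4773, was that of *mdx* mouse 2, the mouse with the most Mmp12. Other mice did not share this match. The next sum, 4181, was that of *mdx* mouse 4, with an Mmp12 log2 signal of 4.25. T4, second in Mmp12 at 6.01, had a sum of 2582. Cd163 did not reach the minimum signal, and the C57 mean of Itgam, 28.4 on the linear scale, lay under it. Of 8 fibroblast markers, 4 were higher in *mdx* and 0 were called in treated against *mdx* muscle in limma, with 1 at an unadjusted p under 0.05 and 1 called higher without T2. The sum of the fibroblast markers ranged from 4846 to 6638 over the C57 mice, from 7263 to 9007 over the *mdx* mice and from 6839 to 11429 over the treated mice. T2, the treated mouse with the most Mmp2 and Mmp14 signal, had the highest fibroblast sum of the 11, 11429, and the next treated mouse had 8882. The markers did not all share this order. Among treated mice T2 was highest for Col1a1, Col1a2, Col3a1, Postn and Fbn1, tied for highest for Lum, and lowest for Pdgfra and Dcn. Of 10 neutrophil markers, 9 did not reach the minimum signal, among them Ly6g, S100a8, S100a9 and Mpo, and Csf3r alone was tested. Csf3r rose by 0.98 in *mdx* and was lower by a difference of -0.73 in treated against *mdx* mice, but it passed the filter through the *mdx* group, and its C57 and treated means of 18.7 and 22.3 on the linear scale lay under 30, so background limits both. Of 5 markers of regenerating fibres, 4 were higher in *mdx*, and 3 were lower in treated than in *mdx* mice without T2 but 0 with it, 2 of them with an unadjusted p under 0.05. Myh3 and Chrng on this list had C57 means of 19.3 and 18.1 on the linear scale, under 30, so background limits their rise. Of 5 endothelial markers 0 were called in *mdx* against C57 muscle, with 1 at an unadjusted p under 0.05, while 2 were higher in treated than in *mdx* mice. Without T2, 1 was called lower in *mdx* against C57 muscle and 3 were higher in treated than in *mdx* mice.

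Other metalloproteinases, their regulators, inducers with AP-1 subunits, and matrix substrates made 4 pathway lists, with 38 genes tested. In *mdx* against C57 muscle 14 were called higher and 0 lower, where 7.06% and 4.96% of all probe sets tested were. In treated against *mdx* muscle 1 was called higher and 2 lower, near the shares of 7.26% and 3.88% over all probe sets. These shares are from the fit with T2. Counts without T2 in the 4 lists, here and below, have no share beside them and are not read as results about a list. Among 17 other metalloproteinases, 8 reached the minimum signal and 1 was called in *mdx* against C57 muscle. This was Mmp19, a widely expressed enzyme that cleaves basement membrane proteins, which rose by 1.24 (adjusted p = 0.0121), from 5.10 to 5.54 in C57 to between 6.19 and 6.94 in *mdx* mice. In treated against *mdx* muscle 0 of the 8 were called in limma and 0 had an unadjusted p under 0.05, although 2 were called lower without T2. Leaving out T2 also gave 2 calls, both higher, in *mdx* against C57 muscle. Among genes that control metalloproteinases, 3 of 12 tested were higher in *mdx* and 0 lower. They were Cd44, the hyaluronan receptor that holds Mmp9 at the cell surface, by 0.83 (adjusted p = 0.00207), Plat, the tissue plasminogen activator, by 0.76 (adjusted p = 0.00335), and Lrp1, an endocytic receptor that clears proteases and their inhibitors, by 0.46 (adjusted p = 0.0380). Lcn2, which binds Mmp9 and slows its breakdown, differed by 1.00 in *mdx* (adjusted p = 0.139) and fell by 1.57 in treated against *mdx* mice (adjusted p = 0.0261). Reck, a membrane-anchored inhibitor of Mmp2, Mmp9 and Mmp14, rose by 0.45 in treated against *mdx* mice (adjusted p = 0.0263), from 5.93 to 6.19 in *mdx* to between 6.23 and 6.72, and is named after its values were seen. Without T2, 1 gene of this list was called higher and 2 lower in treated against *mdx* mice.

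Among 11 inducers of metalloproteinases and AP-1 subunits, 8 were tested and 4 rose in *mdx*, where 7.06% of all probe sets tested were called higher. The cytokine genes Il1b, Il6 and Osm did not reach the minimum signal. The 4 were Spp1, or osteopontin, by 1.29 (adjusted p = 0.0102), Tgfb1, the main growth factor for matrix production, by 0.88 (adjusted p = 0.00372), and the AP-1 subunits Fosl1, by 0.79 (adjusted p = 0.0460), and Junb, by 0.76 (adjusted p = 0.0436). Fosl1 passed the filter through the *mdx* and treated groups. Its C57 mean of 26.0 on the linear scale lay under 30, so background limits its rise and its place in this count. Spp1 alone of this list was lower in treated than in *mdx* mice, with a difference of -0.97 (adjusted p = 0.0363). Without T2, 2 genes of the list were called lower. Of 10 matrix substrates, all tested, 6 rose in *mdx*, and in treated against *mdx* muscle 0 were called in limma, with 1 at an unadjusted p under 0.05. The largest rises were those of Col3a1, of the fibrillar type III collagen, by 1.38 (adjusted p = 0.00233), and of the basement membrane collagen Col4a1, by 1.04 (adjusted p = 7.3e-04), followed by fibronectin, Fn1, and Col4a2, by 0.96 each. Without T2, 1 substrate was called in treated against *mdx* mice. The substrate and fibroblast lists share 4 collagen and proteoglycan genes.

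**Figure D4:**
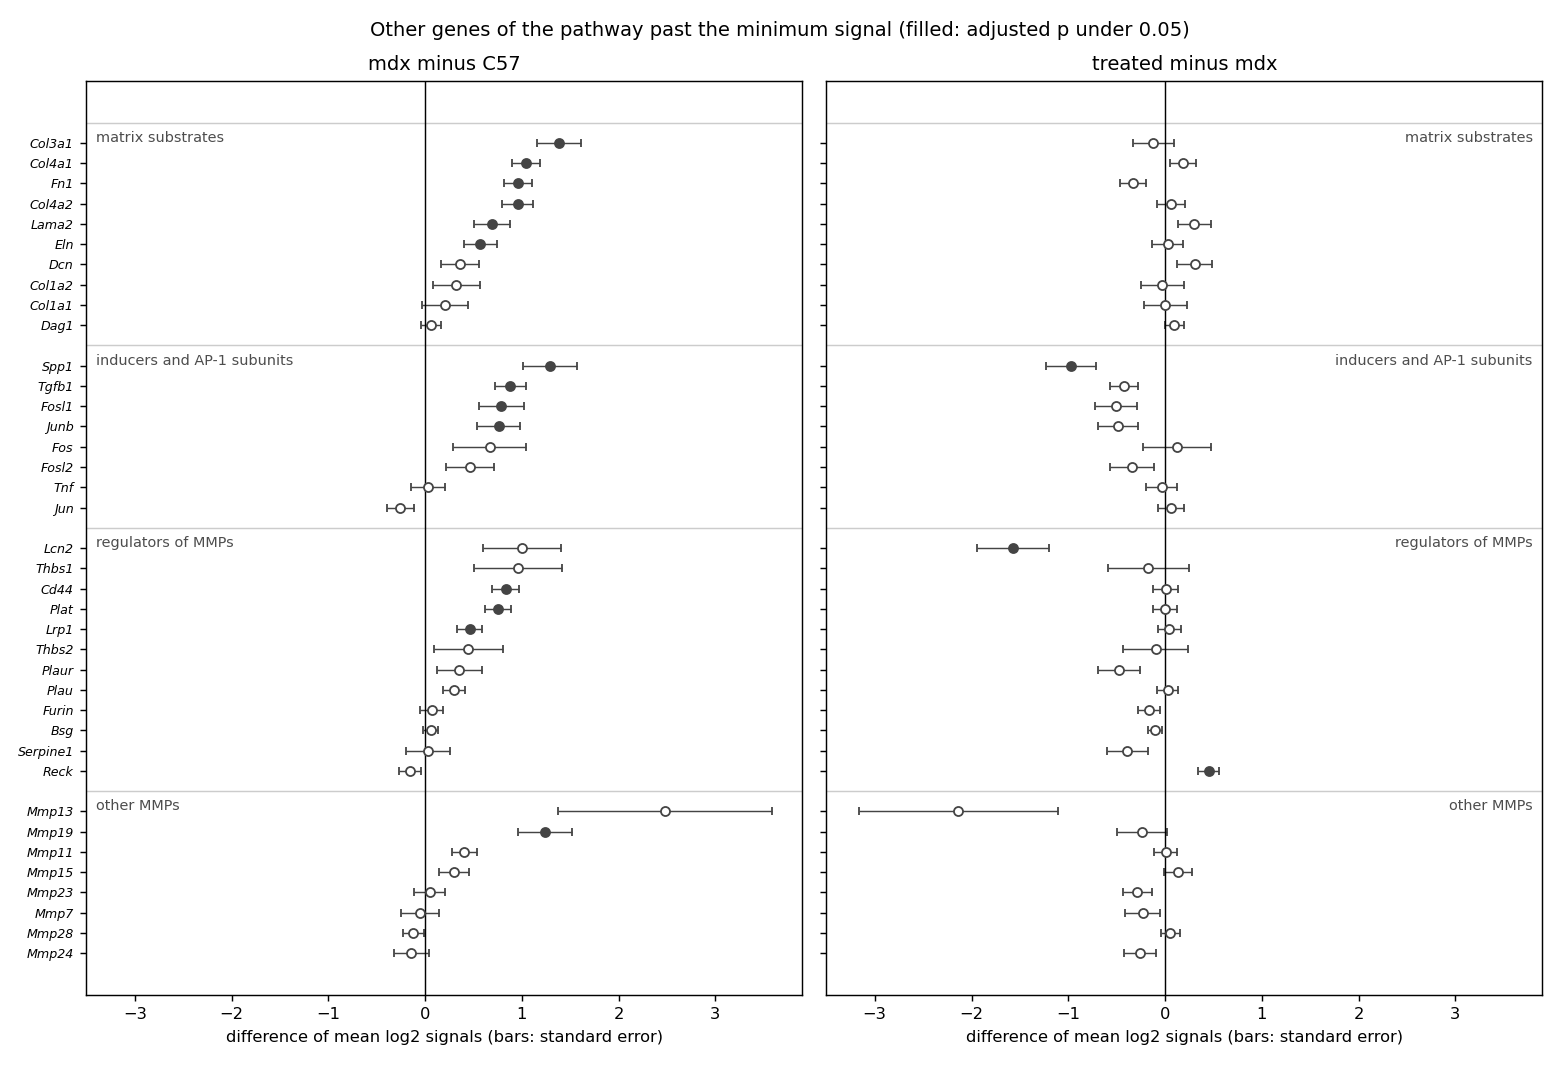
Differences between group means on the log2 scale (x axis), with standard errors, for the genes of 4 pathway lists that reached the minimum signal; filled points have an adjusted p under 0.05. Every filled point lies to the right for mdx minus C57, and for treated minus mdx only Lcn2 and Spp1 are filled to the left and Reck to the right.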

How the data were processed

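Each of the 11 mice had its TA RNA, from mid-belly cryosections, read on its own Mouse Gene ST 1.1 array (Affymetrix). The authors made the deposited intensities with RMA in Affymetrix Expression Console (background correction, sketch-quantile normalization, median polish), per their methods and the labels, and the values are on the linear scale, with 100% of their log2 on a whole hundredth. The deposited positions name no genome build, so only RefSeq coordinates (GRCm38.p6) are printed. No column was left unused.

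In R 4.3.3, limma 3.58.1 (lmFit, eBayes) fitted log2 intensities by group over the 14494 probe sets whose group means reached 30 in 1 or more of the 3 groups, and tests were two-sided. The number of arrays, 3 or 4 a group, limits the precision. The paper's criterion with its t-test was an unadjusted p under 0.05. Calls here need an adjusted p under 0.05 in every alternative, the methods' t-test included. The fit was tested on simulated data. Other tools were pandas 2.3.3, NumPy 2.4.6 and matplotlib 3.10.9 under Python 3.11.15.

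The members and gene lists were chosen with earlier results of these data known. Named were all members, up to 4 called genes for each pathway list by size of difference, and the 5 nearest profiles of each member called in *mdx*. Positions of motifs count bases before the annotated start. Alternatives were the methods' t-test on log2 and linear signals, limma on the compared groups alone, a robust prior with trend, array weights, no filter or a minimum of 100, centred arrays, a further quantile normalization, probe sets averaged by gene, the mouse number as a block and leaving out each mouse. Leaving T2 out of the list counts, restoration and spread was added after seeing the data. Mouse numbers did not pair the mice across groups.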

Additional observations from a re-analysis of the deposited data

Results flagged for a closer look

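Of 46 groups of 4 mice checked for a mouse far from the others, 3 held one by Dixon's criterion, and chance gives about 1 in 20. *mdx* mouse 2 had an Mmp12 log2 signal of 6.85, where the other *mdx* mice had 4.24 to 4.33. T2 had a Timp3 signal of 9.54, below the 9.84 to 9.89 of the other treated mice. T3 had a Junb signal of 5.99, below the 6.34 to 6.38 of the others.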

How the results depend on the processing

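In *mdx* against C57 muscle the 6 calls among members came to 3 in the methods' t-test on linear signals and stayed at 6 with each mouse left out. In treated against *mdx* muscle, the 2 calls came to 0 in the t-test on log2 signals (2 at an unadjusted p under 0.05), 0 on linear signals (1 unadjusted), 0 with the replicate block (2 unadjusted), 1 with only the 2 groups compared, 1 at a minimum signal of 100, which leaves out Mmp3, and 4 with array weights, which added Mmp9 and Timp2, and they ranged from 0 to 3 with a mouse left out. In treated against C57 muscle the 6 calls came to 3 in the t-test on log2 and 2 on linear signals. Calls over all probe sets tested dropped too. In treated against C57 muscle limma's 3564 came to 1274 in the t-test on log2 and 879 on linear signals. In *mdx* against C57 muscle 1742 came to 791 and 538, and in treated against *mdx* muscle 1615 came to 88 and 77. The 14 calls among other pathway genes in *mdx* came to 6 and 4 in these t-tests and 9 with the replicate block, and ranged from 8 (without C57 mouse 2) to 15 with a mouse left out. Their 3 calls in treated against *mdx* muscle came to 0 in both t-tests (5 on log2 and 4 on linear signals unadjusted), 0 with only the 2 groups compared (7 unadjusted), 1 at a minimum signal of 100, 1 with the replicate block and 10 with array weights, and ranged from 0 (without T3) to 8 (without T2). Their 12 calls in treated against C57 muscle came to 3 and 2 in the t-tests. Differences that were not called changed sign. Mmp9 in *mdx* minus C57 was 0.0067 on linear signals, 0.22 with array weights and 0.018 with the replicate block, and ran from -0.17 to 0.24 with a mouse left out. Mmp12 in treated minus *mdx* was -0.18 on linear signals and -0.13 with array weights, and ran from -0.23 to 0.74. Mmp14 in treated minus *mdx* ran from -0.27 to 0.034, and Timp2 in treated minus C57 from -0.077 to 0.18. No called difference of a member changed sign under any alternative run. For the other pathway genes only the counts of calls were followed. Where no construction is named, the cause was not tested. Same-numbered mice did not deviate together (r from -0.30 to 0.15 over 10 pairs, and 1 of 11 mice correlated best with its own number), so the replicate block shares only a number. Signals near the minimum limit what can be said of Mmp3 and Mmp12 in C57 muscle and of Mmp8 in any group. Among other genes they limit Mmp13, Fosl1, Itgam, Csf3r, Myh3 and Chrng in C57 muscle.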

Other observations

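The collagenase Mmp13 is described because of its values and falls outside the naming rule. Its log2 signal was 3.85, 4.02 and 5.72 in C57 mice, 9.11, 5.0, 9.55 and 4.39 in *mdx* mice and 4.13, 5.74, 4.98 and 4.66 in treated mice. *mdx* mice 1 and 3 stood more than 3 log2 units above every other muscle, and neither was the *mdx* mouse with the most Timp1, Mmp3 or Mmp12. The *mdx* minus C57 difference was 2.48 with an adjusted p of 0.186 in limma. Mmp13 is known from cartilage, bone and remodelling connective tissue, and no source of its signal was tested here.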
